A study of Rattus norvegicus with 12 samples.

Results

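Kidney transcripts of the cytochrome P450 enzymes that oxidise arachidonic acid, and of the epoxide hydrolases that act on their products, were measured in 4 strains of rat, all aged 30 days. The genes were taken from a list of 10, keeping each gene for which the array has a probe set annotated to that gene alone. The list comprised the CYP4A genes Cyp4a1, Cyp4a2, Cyp4a3 and Cyp4a8, the CYP4F genes Cyp4f1 and Cyp4f4, the epoxygenases Cyp2c23 and Cyp2j4, and the hydrolases Ephx1 and Ephx2. Of these, 9 genes had such a probe set, out of 14217 genes named on the array, and Cyp4a8 had a second one, giving 10 probe sets. The gene left out was Cyp4a2, because its probe set is also annotated to Cyp4a3.

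The series set rat strains susceptible to polycystic kidneys beside resistant ones, and used both kidneys of 6 animals per strain, whose RNA was pooled by strain and hybridized to 3 Affymetrix rat arrays. SD stands for the outbred Sprague Dawley rat. PCK arose from SD stock and has cystic kidneys through a mutated Pkhd1, whose human counterpart is mutated in recessive polycystic kidney disease. FHH, the Fawn Hooded Hypertensive rat, is inbred. FHH.Pkhd1 is its congenic strain FHH.PCK-(D9Rat35-D9Rat70)/Mcwi, in which a PCK segment of chromosome 9 was placed on the FHH background. None of the listed genes lies on chromosome 9. All animals were fed the 5LOD diet, and their sex is not given in the labels used here. The 12 arrays are 3 technical replicates of each of 4 pools, so every standard deviation (SD of the arrays), standard error (SE) and p-value below describes the spread between arrays of a pool and not the spread between animals. In whole-kidney RNA, fewer cells of a type and less RNA per cell cannot be told apart.

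The kidney is one of the main sites of this branch of arachidonate metabolism. CYP4A and CYP4F enzymes add a hydroxyl group to the end of the arachidonate chain and form 20-HETE, a lipid that constricts renal arterioles and inhibits sodium transport in the tubule. CYP2C and CYP2J enzymes form epoxyeicosatrienoic acids (EETs), which in general dilate vessels and are natriuretic, and soluble epoxide hydrolase, the product of Ephx2, converts EETs to diols. In rat kidney the CYP4A enzymes and Cyp2c23 are abundant in the proximal tubule, and Cyp2c23 is regarded as the main renal epoxygenase. Microsomal epoxide hydrolase, the product of Ephx1, acts mainly on epoxides of foreign compounds. The labelled tissue was borne out by its markers: all 28 measured proximal tubule markers were above the detection level in every pool, a log2 signal of 5.74. That level is a chosen cut-off, the 40th percentile of the table, and no blank was measured.

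The largest differences belonged to 1 hydroxylase gene and 1 hydrolase gene, in different strains. Cyp4a8 was about equal in PCK and SD, lower in FHH, and 10.1-fold lower again in FHH.Pkhd1 than in FHH. Ephx2 was about equal in FHH and FHH.Pkhd1, lower in SD, and 6.05-fold lower again in PCK than in SD. Cyp4a3 stood highest in PCK, Cyp2j4 lowest in FHH.Pkhd1 and Ephx1 highest in SD, each by a smaller margin. Cyp2c23 and Cyp4f1 spanned less than the 1.5-fold limit over the 4 pools, and Cyp4f4 was below the detection level in all of them.

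The CYP4A genes lie together on chromosome 5, and their promoters are shown first because the 2 members of this cluster with the clearest strain differences, Cyp4a8 and Cyp4a3, did not share a pattern. The sequences are RefSeq's 300 bases from 250 before to 50 after the annotated start, on the minus strand of GRCr8. They are those of the reference strain BN and not of the strains studied. Capitals mark AGGTCA, the hexamer that nuclear receptors such as PPARA and RXRA recognise, searched on both strands. RefSeq promoters were at hand for 7 of the 10 listed genes.
Cyp4a8, chr5:133970177-133970476: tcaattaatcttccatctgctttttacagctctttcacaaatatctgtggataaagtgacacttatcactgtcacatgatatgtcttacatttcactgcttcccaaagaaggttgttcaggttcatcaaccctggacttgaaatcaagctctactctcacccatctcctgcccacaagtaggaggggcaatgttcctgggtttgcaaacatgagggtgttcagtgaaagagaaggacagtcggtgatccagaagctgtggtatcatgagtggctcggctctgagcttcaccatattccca
Cyp4a3, chr5:134352187-134352486: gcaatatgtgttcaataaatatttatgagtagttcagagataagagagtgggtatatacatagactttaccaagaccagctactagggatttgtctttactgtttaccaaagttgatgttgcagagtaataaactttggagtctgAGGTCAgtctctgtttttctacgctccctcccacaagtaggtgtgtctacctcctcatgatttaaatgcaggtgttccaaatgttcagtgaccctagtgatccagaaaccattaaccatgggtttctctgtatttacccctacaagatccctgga
Cyp4a2, chr5:134170859-134171158: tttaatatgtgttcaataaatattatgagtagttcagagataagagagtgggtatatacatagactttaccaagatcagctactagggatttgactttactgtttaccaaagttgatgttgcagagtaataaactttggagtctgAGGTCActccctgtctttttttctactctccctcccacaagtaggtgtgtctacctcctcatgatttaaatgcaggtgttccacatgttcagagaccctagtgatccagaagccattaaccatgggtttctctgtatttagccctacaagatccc
The Cyp4a3 and Cyp4a2 windows were identical at 93.1% of 305 aligned columns, while Cyp4a3 and Cyp4a8 were identical at 59.1% of 325. AGGTCA was found 1 time in each of Cyp4a3 and Cyp4a2, at position -105 from the annotated start, and was not in the Cyp4a8 window. It was also in 1 of the 2 Ephx1 windows, at -196 and -131, and in none of those of Cyp2c23, Cyp2j4 and Cyp4f1. The hexamer occurs in 16.2% of all 33469 RefSeq promoters of this length. The tandem element DR1, which is that hexamer repeated after a gap of 1 base and so overlaps it by construction, occurs in 18 of them (0.0538%) and in none of the members' windows. TGACNNNGC, the core of the antioxidant response element, was searched on both strands as well and was found in 1 of the 2 Ephx1 windows and in no other member's (12.1% of all promoters).

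Cyp4a8 encodes a fatty acid hydroxylase of the kidney. Its log2 signals were 12.25, 12.29 and 12.28 on the SD arrays and 12.33, 12.18 and 12.31 on the PCK arrays. They were 11.19, 11.14 and 11.09 on the FHH arrays and 7.78, 7.73 and 7.92 on the FHH.Pkhd1 arrays. The SD and PCK arrays overlapped, the FHH arrays all lay below them, and the FHH.Pkhd1 arrays lay far below the FHH arrays while staying above the detection level. FHH.Pkhd1 minus FHH was -3.33 ± 0.05 (log2, SE, limma adjusted p = 1.22e-12). PCK minus FHH.Pkhd1 was 4.46 ± 0.05, a 22.0-fold difference (limma adjusted p = 1.48e-14). FHH was 2.19-fold below SD, with SD minus FHH at 1.13 ± 0.05 (limma adjusted p = 1.22e-08). PCK minus SD was 0.00 with a 95% interval of -0.12 to 0.12 (limma adjusted p = 0.973). The order of levels was therefore SD and PCK, which did not differ beyond their spread, then FHH, then FHH.Pkhd1.

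The second Cyp4a8 probe set, with other probes, again put FHH below SD and PCK, and FHH.Pkhd1 lowest. By this probe set the PCK arrays all lay just above the SD arrays. Its log2 signals were 10.78 to 10.84 in SD, 10.85 to 10.86 in PCK, 9.56 to 9.61 in FHH and 6.27 to 6.50 in FHH.Pkhd1. In a fit of every probe set on its own, FHH.Pkhd1 minus FHH was -3.22 ± 0.05 and SD minus FHH was 1.23 ± 0.05 by this probe set. PCK minus SD was 0.04 ± 0.05. Both probe sets were hybridized with the same labelled RNA, so they check the probes and not the pools.

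**Figure D1:**
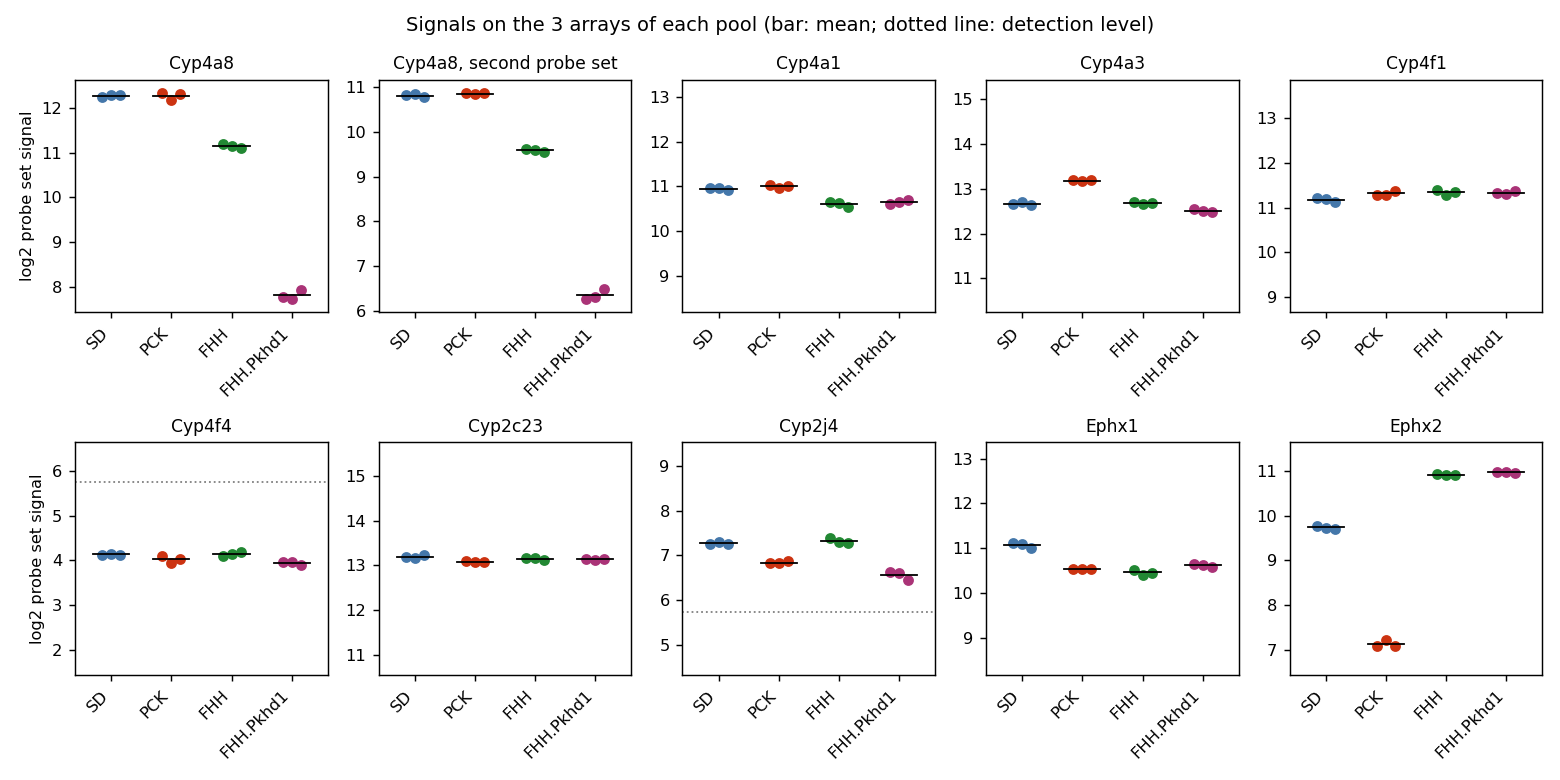
Log2 probe set signal (y axis) on each of the 3 arrays (points) of the SD, PCK, FHH and FHH.Pkhd1 pools (x axis), with the mean as a bar; every panel spans the same number of log2 units, and the dotted line is the detection level of 5.74. Both Cyp4a8 probe sets fall in FHH and again in FHH.Pkhd1, Ephx2 is lowest in PCK (7.09 to 7.23), and the other panels are nearly flat on this scale.

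Cyp4a3, another arachidonate hydroxylase of the proximal tubule, was at 13.19, 13.17 and 13.19 on the PCK arrays. It was at 12.67, 12.70 and 12.64 in SD, at 12.70, 12.67 and 12.68 in FHH, and at 12.55, 12.51 and 12.48 in FHH.Pkhd1. Every PCK array lay above every other array, and every FHH.Pkhd1 array lay below. PCK minus FHH.Pkhd1 was 0.67 ± 0.03 (SE, limma adjusted p = 6.02e-09), or 1.59-fold. PCK minus SD was 0.52 ± 0.03 (limma adjusted p = 1.29e-07), which is 1.43-fold and under the 1.5-fold limit. FHH and SD differed by 0.02, less than the spread between arrays allows to separate (limma adjusted p = 0.741). Cyp4a2 is a near copy of Cyp4a3, so the signals of these 2 genes may not be fully separate on this array, which was not tested.

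Cyp4a1, the CYP4A gene best known for induction by peroxisome proliferators, was higher in both SD-derived pools than in both FHH pools. Its signals were 10.92 to 10.97 in SD, 10.97 to 11.03 in PCK, 10.54 to 10.65 in FHH and 10.60 to 10.70 in FHH.Pkhd1. PCK and SD overlapped, and the FHH pools overlapped as well, with adjusted p of 0.371 and 0.455 (limma). SD minus FHH was 0.34 ± 0.04 (limma adjusted p = 3.88e-05), a 1.27-fold difference. The 2 Pkhd1 comparisons put Cyp4a1 within 95% intervals of -0.04 to 0.14 (PCK minus SD) and -0.04 to 0.13 (FHH.Pkhd1 minus FHH).

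The CYP4F genes gave little contrast. Cyp4f1, on chromosome 7, was at 11.13 to 11.23 in SD, 11.29 to 11.38 in PCK, 11.29 to 11.39 in FHH and 11.32 to 11.37 in FHH.Pkhd1. The SD arrays lay below all others, by 0.14 ± 0.04 against PCK (limma adjusted p = 0.0179) or 1.10-fold, and the other 3 pools could not be put in order (adjusted p of 0.688 to 0.947, limma). Cyp4f4 had signals of 3.89 to 4.18 over the 12 arrays, below the detection level, and was not tested.

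Cyp2c23, on chromosome 1, was the steadiest of the 8 tested members. Its signals ran from 13.17 to 13.22 in SD, 13.07 to 13.11 in PCK, 13.12 to 13.17 in FHH and 13.12 to 13.14 in FHH.Pkhd1. The PCK arrays were all below the SD arrays, with PCK minus SD at -0.11 ± 0.03 (limma adjusted p = 0.0208), which is 1.08-fold. FHH.Pkhd1 minus FHH had a 95% interval of -0.09 to 0.05. Neighbouring pools in the order SD, FHH, FHH.Pkhd1 and PCK did not differ beyond their spread (adjusted p of 0.214 to 0.710, limma). The PCK and FHH.Pkhd1 arrays nevertheless did not overlap.

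Cyp2j4, an epoxygenase gene on chromosome 5, had 7.39, 7.29 and 7.29 on the FHH arrays and 6.62, 6.60 and 6.46 on the FHH.Pkhd1 arrays. It had 7.25, 7.31 and 7.24 in SD and 6.82, 6.83 and 6.86 in PCK. Both pools that carry the PCK segment thus lay below both pools that do not, on every array. FHH.Pkhd1 minus FHH was -0.76 ± 0.05 (SE, limma adjusted p = 4.04e-07), a 1.69-fold decrease that passed the limit. PCK minus SD was -0.43 ± 0.05 (limma adjusted p = 2.01e-05), a 1.35-fold decrease that did not. The difference between these 2 differences was 0.33 ± 0.07 (limma adjusted p = 0.00273). FHH and SD differed by 0.05 (limma adjusted p = 0.386), and PCK lay 0.28 ± 0.05 above FHH.Pkhd1.

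Ephx2 had log2 signals of 7.09, 7.23 and 7.09 on the PCK arrays and 9.77, 9.73 and 9.71 on the SD arrays. They were 10.94, 10.91 and 10.90 in FHH and 10.97, 10.97 and 10.95 in FHH.Pkhd1. No array of PCK came within 2 log2 units of any other array, and the SD arrays lay between PCK and the 2 FHH pools, which differed by little although their arrays did not overlap. PCK minus SD was -2.60 ± 0.04 (SE, limma adjusted p = 3.84e-13). SD minus FHH was -1.18 ± 0.04, 2.27-fold (limma adjusted p = 5.21e-10). PCK was 14.2-fold below FHH.Pkhd1, the other pool with the PCK segment (-3.83 ± 0.04, limma adjusted p = 3.67e-15). Unlike Cyp4a8, Ephx2 had no second probe set, so its differences were not checked with other probes. FHH.Pkhd1 minus FHH was 0.05 ± 0.04 (limma adjusted p = 0.415), with a 95% interval of -0.04 to 0.14. Ephx2 lies on chromosome 15 and thus outside the chromosome 9 segment. Cyp4a8 and Cyp2j4, on chromosome 5, are outside it as well and were called in that comparison.

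Ephx1, on chromosome 13, was highest in SD. Its signals were 11.12, 11.08 and 11.01 on the SD arrays, 10.54, 10.53 and 10.52 in PCK, 10.51, 10.40 and 10.45 in FHH, and 10.64, 10.63 and 10.59 in FHH.Pkhd1. All SD arrays lay above all others. SD minus FHH was 0.62 ± 0.04 (SE, limma adjusted p = 1.28e-07), or 1.53-fold. PCK minus SD was -0.54 ± 0.04 (limma adjusted p = 4.24e-07), a 1.45-fold difference under the limit. FHH.Pkhd1 lay 0.16 ± 0.04 above FHH (limma adjusted p = 0.00939). PCK did not differ beyond the spread from its neighbours in the order of levels, FHH.Pkhd1 (adjusted p = 0.0723, limma) and FHH (adjusted p = 0.126). The PCK arrays nevertheless overlapped with those of neither pool.

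The 1.5-fold limit is part of the rule for a call, which also asked for a limma adjusted p under 0.05 over the 10895 genes tested, 8 of them members. In PCK minus SD 1 member was called, Ephx2, against 3.11% of all genes tested. In FHH.Pkhd1 minus FHH 2 were called, Cyp4a8 and Cyp2j4, both lower, against 1.27% of all genes. In PCK minus FHH.Pkhd1 3 were called, Cyp4a8 and Cyp4a3 higher and Ephx2 lower, against 5.83%. In SD minus FHH 3 were called, Cyp4a8 and Ephx1 higher and Ephx2 lower, against 3.31%. At adjusted p under 0.05 without the fold limit 6, 4, 5 and 5 members passed in these comparisons (limma), beside 36.1%, 22.2%, 53.9% and 37.1% of all genes. The median log2 difference of the 8 members was -0.05, -0.01, 0.13 and 0.01 in the same order, beside 0.00, 0.01, -0.06 and -0.04 over all genes tested. With 8 genes the shares have little precision, and the list as a whole had no common direction. Each of these comparisons shares pools with others of them, so they are not independent.

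**Figure D2:**
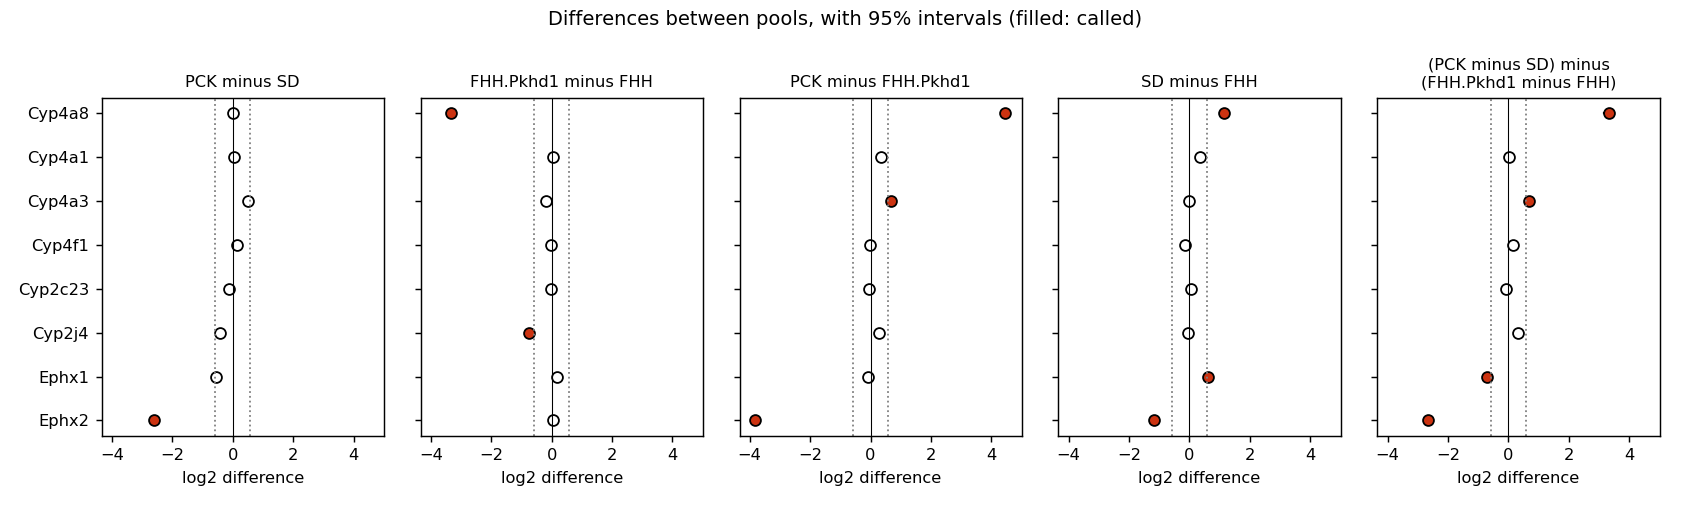
Log2 difference (x axis) of each tested member (y axis) in 4 comparisons of pools and in the difference of the 2 Pkhd1 comparisons, with 95% intervals, many of them narrower than the symbol; filled circles were called and dotted lines mark 1.5-fold. Cyp4a8 reaches -3.33 in FHH.Pkhd1 minus FHH and stays at 0.00 in PCK minus SD, while Ephx2 is at 0.05 and -2.60.

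Whether the Pkhd1 mutant pool differed from its control in the same way on both backgrounds was tested as (PCK minus SD) minus (FHH.Pkhd1 minus FHH). Of the 8 tested members 4 were called, against 5.02% of all genes, and 5 had an adjusted p under 0.05 at any size, against 30.7% (limma). The difference was 3.33 ± 0.08 for Cyp4a8 (limma adjusted p = 2.60e-11) and 0.69 ± 0.05 for Cyp4a3 (limma adjusted p = 3.60e-07). It was -2.65 ± 0.06 for Ephx2 (limma adjusted p = 1.45e-11) and -0.70 ± 0.05 for Ephx1 (limma adjusted p = 1.37e-06). For Cyp4a1 it was 0.00, with a 95% interval of -0.12 to 0.13. For Cyp4f1 it was 0.15 ± 0.06 (limma adjusted p = 0.0761), so these hydroxylase genes were not called. The hydroxylase genes Cyp4a8 and Cyp4a3 were at -3.33 and -0.17 in FHH.Pkhd1 minus FHH but at 0.00 and 0.52 in PCK minus SD. The hydrolase genes Ephx2 and Ephx1 were at -2.60 and -0.54 in PCK minus SD but at 0.05 and 0.16 in FHH.Pkhd1 minus FHH. PCK and SD may differ at loci outside the segment, so the 2 comparisons do not isolate the same change.

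Measures of the RNA and of other cells moved with these comparisons, and their part in the results was not tested. Array medians were 6.41 to 6.46, and correlations between arrays were 0.9973 to 0.9985 within a pool and 0.9862 to 0.9960 between pools. Poly-A spike-ins, added to the RNA before labelling, differed by -1.10 in FHH.Pkhd1 minus FHH and by 0.35 in PCK minus SD (log2, two-sided exact permutation p = 0.1 each, the smallest that 3 arrays against 3 allow). The 3' minus 5' signal of beta-actin differed by -0.19 and 0.23 (exact permutation p = 0.1 each). In PCK minus FHH.Pkhd1 the spike-ins differed by 0.81 and in SD minus FHH by -0.64 (exact permutation p = 0.1 each). The spike-in shift of -1.10 in FHH.Pkhd1 minus FHH stood beside a median of 0.01 over all genes tested. Array medians were nearly equal in the deposited signals, so this gene median cannot show a shift of all genes. The bearing of the spike-in shift on Cyp4a8 (-3.33) or Cyp2j4 (-0.76) was not tested.

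The proximal tubule, where CYP4A enzymes are known to be made, was traced with 28 markers of the whole segment and 8 of its straight part. The 2 sets overlap, and Slc22a2 and Slc22a7 are in both. The summed linear signal of the 28 was 132123 to 133910 in SD, 129088 to 129910 in PCK, 126830 to 128117 in FHH and 124716 to 127872 in FHH.Pkhd1, a narrow range. In PCK minus SD 1 of them was called, the transporter gene Slc22a7, which was higher (1.69% of all genes). A second probe set of Slc22a8 was called lower there (-0.70). In FHH.Pkhd1 minus FHH 2 were called lower (0.872% of all genes were called lower there), Slc22a2 (-0.84 ± 0.06) and Slc22a7 (-0.72 ± 0.05). The straight part differed more: its 8 markers summed to 39974 to 40498 in SD, 42085 to 43036 in PCK, 34435 to 34815 in FHH and 31650 to 32438 in FHH.Pkhd1. Of these 8, 2 were called higher in PCK minus SD, beside 1.69% of all genes, and 2 lower in FHH.Pkhd1 minus FHH, beside 0.872%. Those 2 lower genes are the same Slc22a2 and Slc22a7. In SD minus FHH 1 was called higher, and 4 were in PCK minus FHH.Pkhd1, where the median of the 8 was 0.57. Of all genes 3.31% and 5.83% were called in these 2 comparisons, in either direction. The sums of the 8 markers put the pools in the order of Cyp4a8 except that PCK stood above SD. The part of these markers in the differences of Cyp4a8 was not tested.

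Collecting duct markers summed to 8658 to 8961 in SD, 12182 to 12392 in PCK, 10674 to 10734 in FHH and 12906 to 13142 in FHH.Pkhd1. Of 9 tested, 2 were called higher in PCK minus SD (median 0.43), beside 1.69% of all genes. In FHH.Pkhd1 minus FHH 1 was (median 0.26), beside 0.395% of all genes. It was Slc4a1 (0.65), which is in the red cell list as well. Adrenal cortex markers were higher in FHH.Pkhd1 than in FHH, with 4 of 6 tested called higher (0.395% of all genes). Their sums were 3417 to 3589 against 2544 to 2595. Star was among those called (0.83), and its second probe set was at 0.77. Cyp11b1 and Nr5a1 were below the detection level in every pool. In PCK minus FHH.Pkhd1 5 of the 6 adrenal markers were called lower (median -2.29), and in SD minus FHH 4 were (median -1.28). Of all genes 5.83% and 3.31% were called in these 2 comparisons, in either direction. Tubule injury markers were higher in PCK than in SD, with 4 of 14 called higher and 1 lower (1.69% and 1.42% of all genes) and sums of 21301 to 21560 against 16409 to 17081. Red cell markers summed to 12378 to 12520 in SD and to 6783 to 8270 in the other pools, with 3 of 4 called lower in PCK minus SD (1.42% of all genes). Fat cell markers summed to 2589 to 2766 in the FHH pools and to 1451 to 1748 in SD and PCK.

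The other genes of the same families were mostly low in these kidneys. Of 26 listed, 15 had a probe set and 7 were tested. In PCK minus SD 1 was called lower (1.42% of all genes), Cyp2c11, a male-predominant liver P450 of the rat (-1.15 ± 0.10). Its signal of 5.78 in SD was barely above the detection level. In the other pools Cyp2c11 was below that level, so it was tested only through SD. That call was lost without SD replicate 1. In FHH.Pkhd1 minus FHH 1 was called lower (0.872% of all genes), Cyp4f17 (-0.60 ± 0.08). Cyp4f17 was also close to the detection level at 5.84 in FHH and below it in the other pools, so it was tested only through FHH. It was not called with quantile normalization or without FHH replicate 2, FHH.Pkhd1 replicate 1 or FHH.Pkhd1 replicate 3. In SD minus FHH Cyp4v3, a fatty acid hydroxylase gene of the eye and other tissues, was called lower (-0.66 ± 0.07) and Cyp2c11 higher (0.93 ± 0.10), the latter again not without SD replicate 1.

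The steps before and beside the P450 branch were examined next, where counts are to be read beside the 1.69% of all genes called higher and 1.42% called lower in PCK minus SD, and the 0.395% and 0.872% in FHH.Pkhd1 minus FHH. Of 13 tested genes for release and reacylation of arachidonate 1 was called in PCK minus SD, the secreted phospholipase gene Pla2g12a (0.61 ± 0.05), and none in FHH.Pkhd1 minus FHH (limma, 7 at an unadjusted p under 0.05). The electron donors of P450 enzymes had none of 5 called in either comparison (limma, 3 and 1 at an unadjusted p under 0.05). Cyb5b, a cytochrome b5 gene, was at -0.55 in PCK minus SD, was called lower without PCK replicate 2, and had a second probe set at 0.43. Of 16 tested prostanoid genes 2 were called lower in PCK minus SD, Ptgs2 (-0.87 ± 0.05), the inducible cyclooxygenase, and Hpgd (-0.65 ± 0.03), which degrades prostaglandins. Ptgds, a prostaglandin D synthase gene, was called lower in FHH.Pkhd1 minus FHH (-1.33 ± 0.05). Of 7 tested lipoxygenase and leukotriene genes Alox15 was called lower (-1.61 ± 0.07) and Dpep1, a dipeptidase that acts on leukotrienes, higher (0.67 ± 0.05) in PCK minus SD. The call of Dpep1 was lost when its probe sets were averaged, 1 of which gave -0.24. In FHH.Pkhd1 minus FHH none of the 7 was called (limma, 3 at an unadjusted p under 0.05). Alox15 was also 3.58-fold higher in SD than in FHH.

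PPARA, a nuclear receptor for fatty acids, is known to induce CYP4A genes, and its target genes were listed for that reason. Of 28 tested genes 5 were called higher in PCK minus SD and 1 lower, beside 1.69% and 1.42% of all genes, with a median of 0.14 beside 0.00 over all genes tested. Called higher were the pantetheinase gene Vnn1 (1.18 ± 0.04), the lipase inhibitor Angptl4 (1.04 ± 0.08), the kinase Pdk4 (1.03 ± 0.05), the peroxisomal enzyme Ehhadh (1.01 ± 0.05) and the isomerase Eci1 (0.62 ± 0.04). Called lower was the peroxisomal enzyme Hsd17b4 (-0.65 ± 0.03). With the mean of each gene's probe sets 3 were called higher, Vnn1, Angptl4 and Ehhadh. In FHH.Pkhd1 minus FHH none of the 28 was called (limma, 15 at an unadjusted p under 0.05), with a median of 0.03. A second probe set of Plin2, a lipid droplet protein gene, was called lower there (-0.86), beside -0.05 for the one used. Ppara itself was below the detection level in every pool. The part of PPARA in the differences of the CYP4A genes was not tested. Among 17 tested NRF2 targets, listed because Ephx1 is one of that factor's targets, Nqo1 was called higher in PCK minus SD (0.59 ± 0.06), a call lost without PCK replicate 2 or SD replicate 1, and Abcc2 lower in FHH.Pkhd1 minus FHH (-0.80 ± 0.09).

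**Figure D3:**
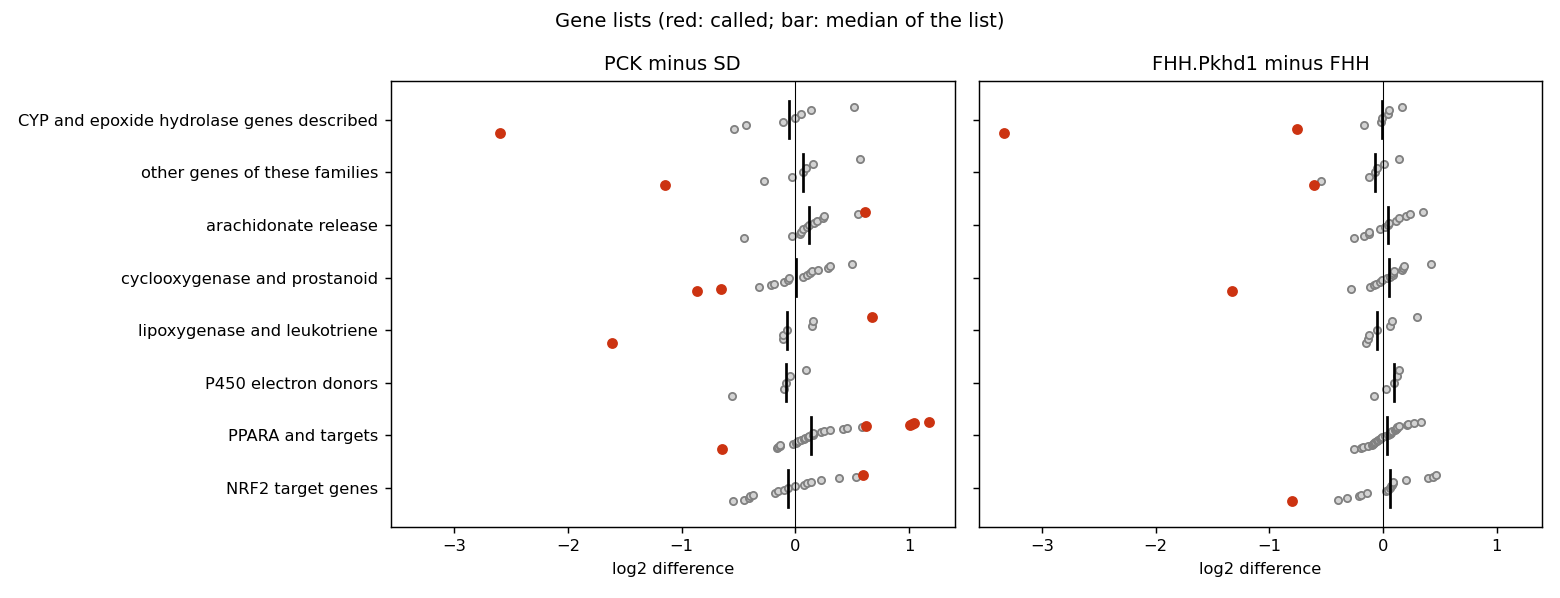
Log2 difference (x axis) of each tested gene in 8 lists (y axis), for PCK minus SD on the left and FHH.Pkhd1 minus FHH on the right; red points were called and the bar is the median of the list. The largest differences are those of Ephx2 (-2.60) on the left and Cyp4a8 (-3.33) on the right, and the list medians lie close to 0 in both.

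The genes beside Cyp4a8 and Ephx2 were chosen after the values were seen, as the 3 nearest tested genes on each side in GRCr8 order. Around Cyp4a8 the 6 genes were Stil, Tal1, Pdzk1ip1, Cyp4a3, Cyp4a1 and Cyp4b1. They ran from -0.17 (Cyp4a3) to 0.21 (Stil) in FHH.Pkhd1 minus FHH, beside -3.33 for Cyp4a8. Around Ephx2 they were Pbk, Esco2, Clu, Trim35, Stmn4 and Dpysl2. In PCK minus SD Clu, the gene of the secreted chaperone clusterin, was called higher (1.55 ± 0.05) while Ephx2 next to it was at -2.60, and the other 5 ran from -0.45 (Esco2) to 0.02 (Stmn4). Clu was also higher in SD than in FHH (0.70 ± 0.05), where Ephx2 was lower. Clu is one of the injury markers counted above.

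**Figure D4:**
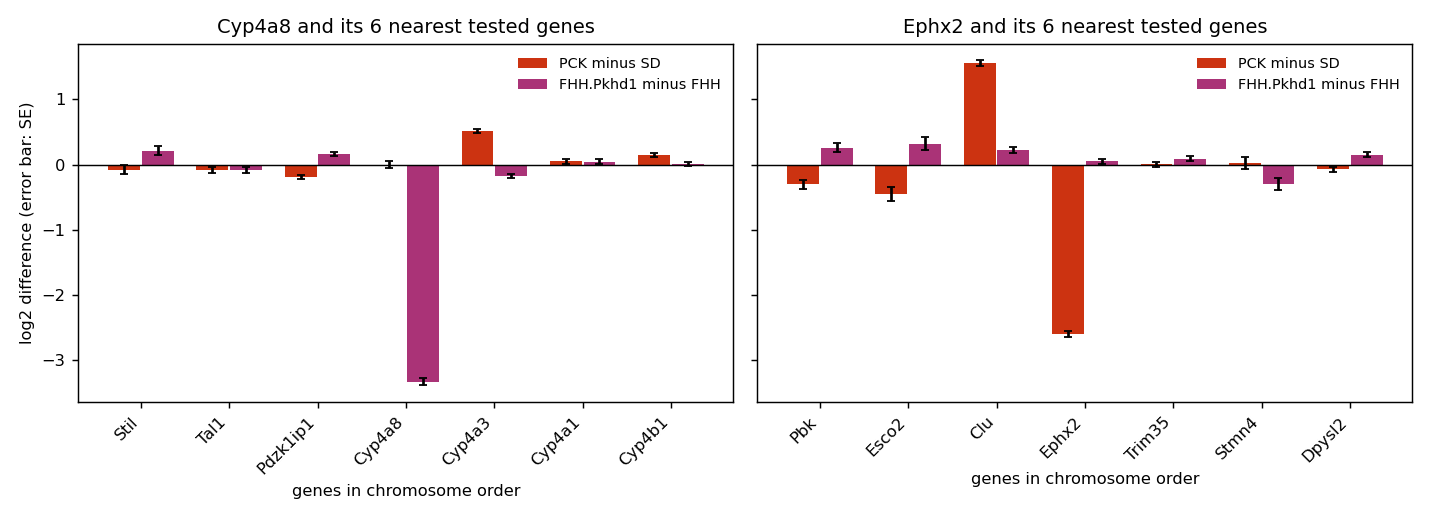
Log2 difference (y axis, bars from 0, error bar SE) of Cyp4a8 (left) and Ephx2 (right) with the 3 nearest tested genes on each side in chromosome order (x axis), for PCK against SD and for FHH.Pkhd1 against FHH. In FHH.Pkhd1 minus FHH the neighbours of Cyp4a8 (-3.33) lie between -0.17 and 0.21, while in PCK minus SD Ephx2 (-2.60) has Clu (1.55) beside it with the opposite sign.

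Genes with a pattern most like that of a member were sought for the 2 members whose pool means span at least 1 log2 unit, among 330 other tested genes with such a span, by Pearson correlation over the 12 arrays. The arrays come from 4 pools, so the correlation is a description. Closest to Cyp4a8 were Naglt1 (r = 0.996), a sodium-dependent glucose transporter gene of the kidney, Rgn (r = 0.988), which encodes the calcium-binding protein regucalcin, and Apcs (r = 0.988), serum amyloid P component. Naglt1 was at 10.76 ± 0.02 in SD, 10.68 ± 0.05 in PCK, 10.43 ± 0.03 in FHH and 9.36 ± 0.05 in FHH.Pkhd1 (log2, SD of the arrays, n = 3). All 3 were lowest in FHH.Pkhd1, with spans of 1.40, 2.11 and 1.99 beside the 4.46 of Cyp4a8.

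Closest to Ephx2 were Pappa2 (r = 0.993), a metalloproteinase gene, Mamdc2 (r = 0.991) and RT1-Da (r = 0.990), a class II histocompatibility chain. RT1-Da was at 11.01 ± 0.02 in SD, 10.29 ± 0.04 in PCK, 11.30 ± 0.04 in FHH and 11.45 ± 0.07 in FHH.Pkhd1 (log2, SD of the arrays, n = 3). Pappa2 was below the detection level in PCK (5.26), and Mamdc2 was above it only in FHH.Pkhd1 (5.77) of the 4 pools. None of the 6 genes lies in the list of members' families. The order of their pool means matched without matching in size, and they were chosen for a high correlation. SD and PCK did not differ beyond their spread for Cyp4a8, nor did FHH and FHH.Pkhd1 for Ephx2. Those parts of the order are therefore not established. By the second Cyp4a8 probe set PCK stood above SD, unlike in the 3 genes most like Cyp4a8.

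**Figure D5:**
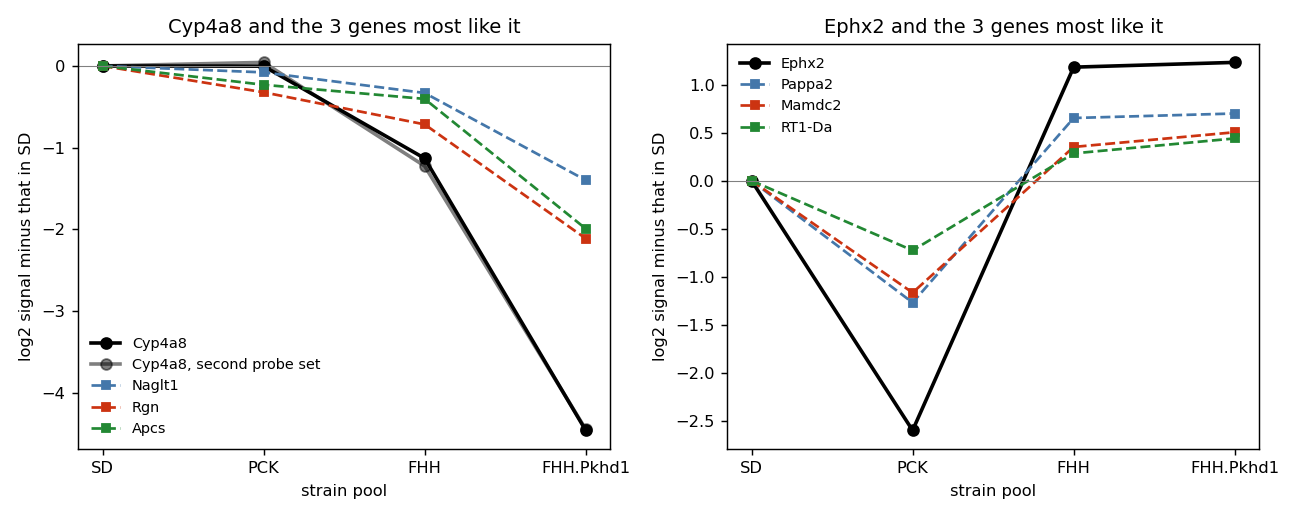
Log2 signal minus that in SD (y axis) in each pool (x axis) for Cyp4a8 with both probe sets and for Ephx2, in black or grey, and for the 3 genes most like each (dashed); points are means of 3 arrays, and the lines only join points of a gene. The like genes, chosen by correlation, follow the order of the pool means of the first Cyp4a8 probe set or of Ephx2. They do not follow the size of the change, with spans of 1.40 to 2.11 beside Cyp4a8 and 1.16 to 1.97 beside Ephx2.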

How the data were processed

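Per the series design, 3 arrays were hybridized with 1 RNA pool per strain. The authors deposited log2 probe set signals. The submitters' processing notes name RMA and Partek 6.2. The sources used here do not give whether RMA saw all arrays at once. The signals were used as deposited, without 57 control probe sets. Symbols were updated to GRCr8 gene records. The probe set with the highest mean stood for a gene, and a gene was tested when at least 1 pool mean was at or above the detection level. All differences come from limma 3.58.1 (R 4.3.3), with 1 fit of all 12 arrays with 1 mean per pool, with Benjamini-Hochberg adjustment over 10895 genes. The procedure was tested on simulated data. The number of arrays limits the precision. Named were all members, called genes of the listed pathways and markers (up to 4 per list and comparison, by size), and the 3 genes most like each member that spans 1 log2 unit or more. Not every called gene is named, and those of several marker lists are given mainly as counts. Eci1, Hsd17b4, Cyb5b, Plin2 and Slc22a8 were named after their values were seen. The members and lists were chosen with earlier results of these data known. Alternatives covered filters, probe set choice, fold limits, variance models, smaller fits, normalization, a replicate block and each array left out.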

Additional observations from a re-analysis of the deposited data

Results flagged for a closer look

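The differences of 4 members between pools with and without the PCK segment were not the same on the 2 backgrounds by the test of the difference itself, (PCK minus SD) minus (FHH.Pkhd1 minus FHH), at an adjusted p under 0.05 and 1.5-fold (limma). The values were 3.33 for Cyp4a8, 0.69 for Cyp4a3, -0.70 for Ephx1 and -2.65 for Ephx2. PCK and SD may also differ outside the segment, and the test describes the spread between arrays of a pool, not between animals. Groups of 3 arrays are too small for a search for outlying arrays.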

How the results depend on the processing

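Besides the fold limit, 21 alternatives were run for each comparison of 2 pools and 20 for the difference of the Pkhd1 comparisons. In every one of them the same members were called as reported, leaving out each array included. Many of these settings leave a member's difference unchanged, so they could alter a call only through its adjusted p. They are the filters, the test of each probe set on its own, the variance models, the smaller fits and the replicate block. Leaving out an array of a pool outside the comparison does so too. Without a fold limit 6 members passed for PCK against SD, 4 for FHH.Pkhd1 against FHH, 5 for PCK against FHH.Pkhd1 and 5 for SD against FHH. With a 2-fold limit 1 member, Cyp4a8, stayed called in FHH.Pkhd1 minus FHH, and 2, Cyp4a8 and Ephx2, in the difference of the Pkhd1 comparisons. The Cyp4a8 value in FHH.Pkhd1 minus FHH ran from -3.39 to -3.28 and the Ephx2 value in PCK minus SD from -2.64 to -2.57. Over all genes, 339 were called for PCK against SD, 138 for FHH.Pkhd1 against FHH, 635 for PCK against FHH.Pkhd1, 361 for SD against FHH and 547 for the difference of the Pkhd1 comparisons. In the same order 676, 368, 1337, 721 and 1247 probe sets were called when each was tested on its own, 3934, 2423, 5877, 4041 and 3345 genes without a fold limit, and 111, 31, 201, 114 and 170 with a 2-fold limit. The arrays share replicate numbers across strains, but the numbers name technical replicates of separate pools. Deviations of same-numbered arrays correlated at -0.33 to 0.34 (18 pairs), those of other arrays at -0.38 to 0.32 (36 pairs), and none of the 12 arrays correlated best with its own number in every other pool. With the replicate number as a block 1, 2, 3, 3 and 4 members were called, as without it, and the counts over all genes were the same. Members close to the detection level and differences near 1.5-fold are limited by signal, and no setting adds information on animals.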
